A study of Mus musculus with 6 samples.

Results

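Respiratory complexes II to V carry electrons from succinate and ubiquinol to oxygen in the inner mitochondrial membrane and use the proton gradient to make ATP. Their nuclear-encoded genes were taken from the deposited expression table as every gene symbol beginning with Uqcr, Cox4 to Cox8 or Atp5, together with Sdha, Sdhb, Sdhc, Sdhd, Cyc1 and Cycs. This gave 49 of the 24255 genes of the table. They comprised 4 genes of complex II, 9 of complex III, the cytochrome c gene, 17 of complex IV and 15 of complex V, and a further 3 that are not subunits: Cox7a2l, a supercomplex factor, and Atp5s and Atp5sl, which carry an Atp5 symbol but are not parts of the synthase core. Of these members, 43 had 1 FPKM or more in some library and were tested. FPKM counts sequenced fragments per unit of transcript length and per unit of library size. The rule used gene symbols and no expression value, but the members and the gene lists below were chosen with earlier results of these data known.

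Complex II (succinate dehydrogenase) passes electrons from the citrate cycle to ubiquinone. Complex III passes them from ubiquinol to cytochrome c, a small soluble carrier, and complex IV (cytochrome c oxidase) from there to oxygen. Complex V is the ATP synthase, with a catalytic F1 head and a membrane rotor made of a ring of c-subunits. Complexes III to V also hold subunits encoded by mitochondrial DNA, which were not analysed here. Fully-grown oocytes hold a large number of mitochondria, do little glycolysis and depend on the oxidation of pyruvate for ATP.

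The libraries were made from fully-grown oocytes (FGOs) at the germinal vesicle (GV) stage, immature oocytes that have completed growth and are arrested in meiotic prophase. There were 3 libraries from wild type (WT) mice and 3 from Lsm14b-KO mice. The latter were homozygous for Lsm14b tm1a(KOMP)Mbp, a knockout-first insertion of a reporter cassette present in all cells of the animal, kept on a C57BL/6J background. All females had received 5 IU of PMSG, a gonadotropin that drives follicle growth, and their oocytes were collected 46 h later and pooled at 20 per library. The age of these mice is not given in the sources used here. LSM14B is an RNA-binding protein of maternal mRNA particles. Where 3 values are given for a genotype, they stand in the order of replicates 1, 2 and 3. The labels do not say which libraries came from separate animals, so the p-values below measure the spread between these libraries, which may in part be technical.

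Lsm14b itself had 2.77, 3.98 and 1.72 FPKM in the WT and was listed at 0, 0 and 0.10 FPKM in the Lsm14b-KO libraries. All 10 oocyte markers examined, among them Zp3 and Gdf9, were above 0 in every library. Their sum, mostly Dppa3, was 44442 to 56649 FPKM in WT and 30029 to 74733 FPKM in Lsm14b-KO libraries. Kit (4.20, 3.46 and 4.58 FPKM in WT, 7.26, 10.6 and 6.73 FPKM in Lsm14b-KO) was higher in Lsm14b-KO without overlap (adjusted p 0.0441 in limma). So was Ddx4 (0.90, 0.70 and 0.39 FPKM in WT, 2.86, 3.49 and 3.31 FPKM in Lsm14b-KO). Ddx4 reached 1 FPKM in Lsm14b-KO libraries alone, so no test of it is given. The other 8 markers overlapped between groups. Of 15 cumulus and granulosa cell markers 12 were under 1 FPKM in every library, 5 of them (Foxl2, Amh, Inhba, Npr2 and Tnfaip6) at 0, and the sum of all 15 was 9.89 to 13.5 FPKM in WT and 6.69 to 11.2 FPKM in Lsm14b-KO libraries. Cyp19a1, the aromatase of granulosa cells, was the largest part of this sum in every library, and most of it in the WT libraries. It was lower in Lsm14b-KO without overlap, at 11.5, 8.26 and 10.5 FPKM in WT and 5.47, 3.00 and 5.76 FPKM in the Lsm14b-KO libraries (adjusted p 0.0426 in limma). Fshr, the FSH receptor, had 1.68, 0.53 and 0.35 FPKM in WT and 2.07, 1.91 and 1.82 FPKM in the Lsm14b-KO libraries, also without overlap (adjusted p 0.0923 in limma). The part of these markers in the results below was not tested. The red blood cell markers (6 in the table) and the 5 leukocyte markers were listed at 0 in every library. The table gives no read counts, so the depth of the libraries is unknown. The summed FPKM of all genes was 1141324 to 1244182 in WT libraries, and 1029728, 564671 and 676656 in the Lsm14b-KO libraries.

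The subunit transcripts differed widely in level within each complex in WT FGOs. The WT means of the tested subunits ran from 1.41 to 624 FPKM in complex II, 4.0 to 1522 FPKM in complex III, 1.37 to 754 FPKM in complex IV and 3.42 to 494 FPKM in complex V. In 22 of the 43 tested members the WT mean was at least 100 FPKM. The highest was Uqcrh, the hinge protein of complex III (1522 ± 335 FPKM, SD, n = 3), and the lowest subunits were Cox4i2, an isoform of complex IV induced by low oxygen (1.37 ± 0.24 FPKM, SD, n = 3), and Sdha, the flavoprotein of complex II (1.41 ± 0.26 FPKM, SD, n = 3). The long transcripts of Sdha, Uqcrfs1, Uqcrc2, Atp5a1 and Atp5b, which encode catalytic or core subunits, were among the low values. Cyc1 and Uqcrc1, the cytochrome c1 and a core protein of complex III, did not reach the level for testing: Cyc1 was listed at 0 in all WT libraries and at 0.20, 0 and 0.25 FPKM in the Lsm14b-KO libraries, and Uqcrc1 at 0 in all WT libraries and at 0.54, 0.28 and 0.25 FPKM. Both are needed in respiring cells, and whether a value of 0 here is an absent transcript or a failed estimate was not tested. Across the tested members the WT level fell with transcript length (Spearman's rho -0.49 across 43 genes, which are not independent and share the 3 WT libraries).

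**Figure D1:**
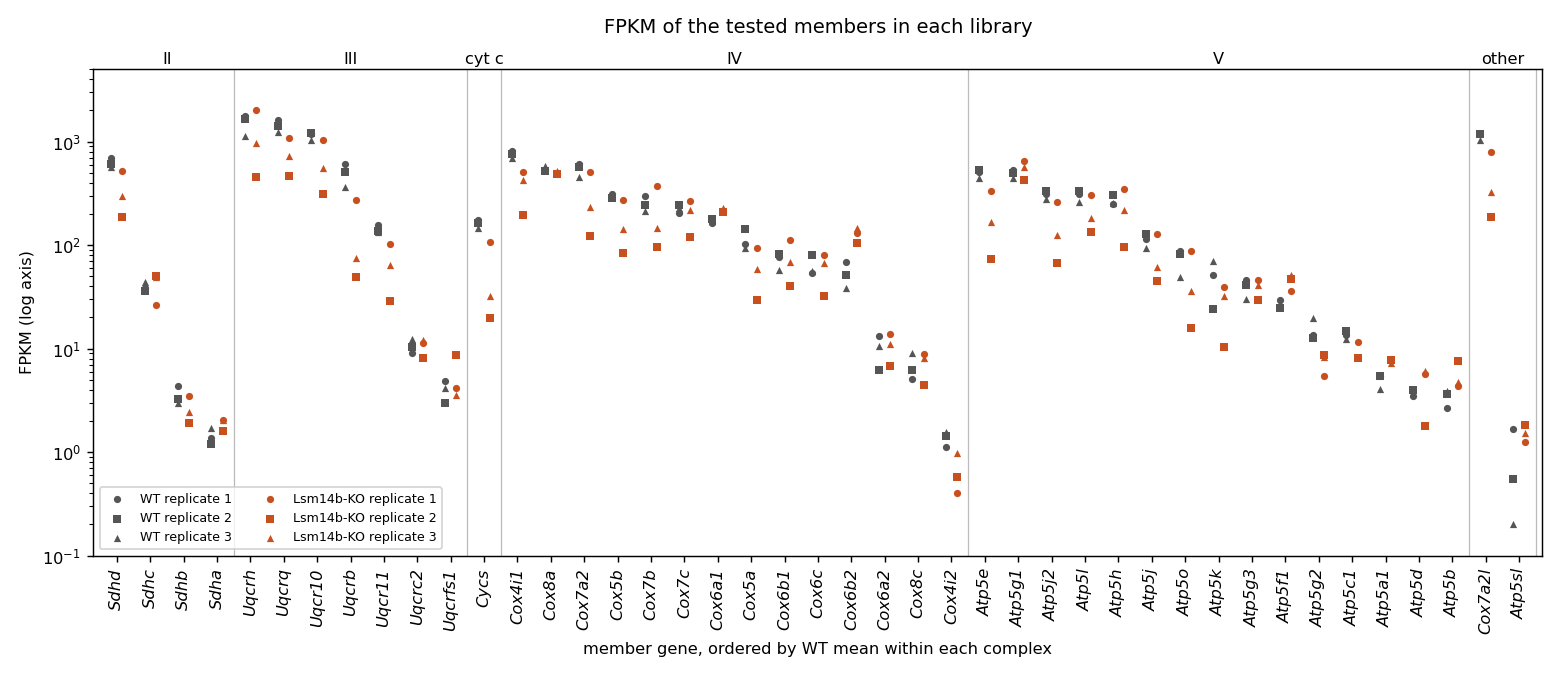
FPKM (log axis) of each tested member in each of the 6 libraries, grouped by complex and ordered by WT mean. Grey symbols are WT and orange symbols Lsm14b-KO libraries, with a shape per replicate. In 34 of 43 members Lsm14b-KO replicate 2 is the lowest Lsm14b-KO library, and in 30 replicate 1 is the highest.

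The question was then whether the complexes differed between WT and Lsm14b-KO FGOs. Log2(FPKM + 1) was fitted with limma across all 6398 tested genes, with p-values adjusted over all of them and a threshold of 0.05. All fold changes below are differences on this scale, Lsm14b-KO minus WT, on which the change of a gene with low values comes out too small. Called lower were 3 of the 43 tested members (6.98%), Uqcrb of complex III, Cycs and Atp5g2 of complex V, against 15.2% of all tested genes. Called higher was 1 member (2.33%), Cox6b2 of complex IV, against 6.38% of all tested genes. The share of members called was below that of all genes in both directions. At an unadjusted p under 0.05 there were 15 members, and 2518 of all tested genes. Fitted values were lower in 30 of 43 members (69.8%) and in 53.2% of all tested genes, with a median of -0.50 for the members and -0.075 for all genes. The 3 Lsm14b-KO values lay below the 3 WT values in 14 members (32.6%, with 26.0% of all tested genes) and above them in 5 members (11.6%, with 19.1% of all tested genes). In libraries of pooled oocytes, fewer oocytes that hold a transcript and less of it per oocyte cannot be told apart.

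By complex, the median log2 fold change was -0.15 in complex II (4 tested), -0.99 in complex III (7 tested), -0.20 in complex IV (14 tested) and -0.50 in complex V (15 tested), and the single value of Cycs was -1.95. These are medians over unlike numbers of genes, and the differences between complexes were not tested. Lower calls numbered 0 of 4, 1 of 7, 0 of 14 and 1 of 15 in complexes II, III, IV and V, and higher calls 0, 0, 1 and 0, with 1, 4, 3 and 5 genes at an unadjusted p under 0.05 in limma. For comparison, 34 of 37 complex I subunits were tested, of which 2 were called lower and 0 higher in limma (11 at an unadjusted p under 0.05), with a median of -0.72.

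**Figure D2:**
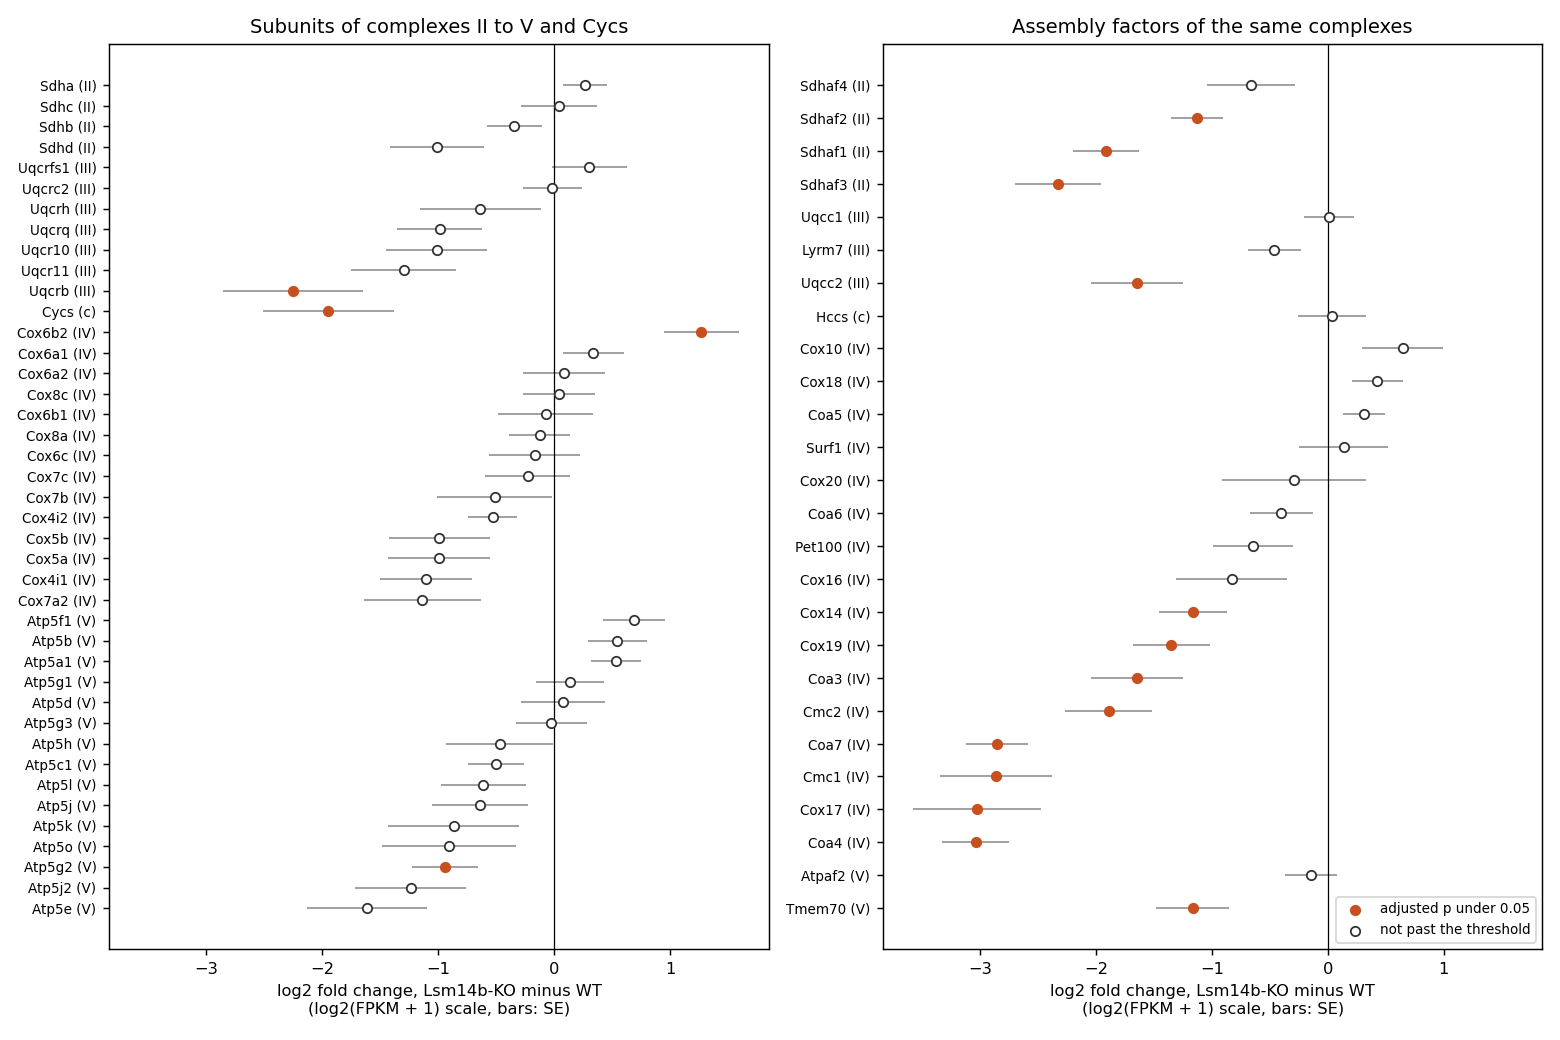
Log2 fold change (Lsm14b-KO minus WT, log2(FPKM + 1) scale) with its SE for the tested subunits and Cycs (left) and for the tested assembly factors (right), with the complex in brackets. Filled points passed an adjusted p of 0.05 in limma: 4 of 41 on the left and 13 of 26 on the right.

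None of the 4 genes of complex II passed the threshold in limma, and 1 (Sdhd) had an unadjusted p under 0.05. Sdhd, a membrane anchor, had 691, 613 and 566 FPKM in the WT and 523, 185 and 301 FPKM in the Lsm14b-KO libraries. The groups did not overlap (log2 fold change -1.01, SE 0.41, adjusted p 0.106 in limma). Sdhc, the other anchor, had 38.6, 35.6 and 43.9 FPKM in WT and 26.6, 50.8 and 48.9 FPKM in the Lsm14b-KO libraries, with the Lsm14b-KO values on both sides of the WT range (0.04, SE 0.33). The iron-sulfur subunit Sdhb had 4.39, 3.26 and 3.00 FPKM in WT and 3.49, 1.93 and 2.41 FPKM in Lsm14b-KO libraries, and the groups overlapped (-0.34, SE 0.24). Sdha had 1.36, 1.19 and 1.69 FPKM in WT and 2.04, 1.59 and 2.05 FPKM in Lsm14b-KO libraries, again with overlap (0.26, SE 0.19). The anchors Sdhd and Sdhc are present once each in the enzyme, and their WT means were 624 ± 63.4 and 39.4 ± 4.21 FPKM (SD, n = 3 each).

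In complex III the largest fall was that of Uqcrb, a subunit that helps form the ubiquinone-binding site. It had 603, 511 and 365 FPKM in the WT and 273, 49.3 and 74.7 FPKM in the Lsm14b-KO libraries. Each Lsm14b-KO value was below each WT value, with replicate 1 the closest (log2 fold change -2.25, SE 0.60, adjusted p 0.0353 in limma). Uqcrb lies on chromosome 13 (chr13:66900617-66905378, minus strand, GRCm38/mm10). Transcripts of 3 other annotated genes share a near-identical stretch with it, so its reads could be split among them. Uqcr11, a small supernumerary subunit, had 158, 138 and 133 FPKM in WT and 101, 29.0 and 63.5 FPKM in the Lsm14b-KO libraries, also without overlap (-1.30, SE 0.45, adjusted p 0.0728 in limma). The remaining small subunits Uqcrq, Uqcr10 and Uqcrh had WT means of 1431, 1141 and 1522 FPKM and Lsm14b-KO means of 760, 632 and 1144 FPKM, and did not pass. The longest transcripts tested in the complex overlapped between groups. Uqcrc2, a core protein, had 9.01, 10.3 and 12.5 FPKM in WT and 11.3, 8.13 and 12.2 FPKM in the Lsm14b-KO libraries (-0.015, SE 0.26), and Uqcrfs1, the Rieske iron-sulfur protein, had 4.85, 2.95 and 4.20 FPKM in WT and 4.16, 8.71 and 3.53 FPKM in the Lsm14b-KO libraries (0.31, SE 0.33).

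Cycs, somatic cytochrome c, which carries electrons between complexes III and IV, was the other large fall. It had 177, 164 and 145 FPKM in the WT and 108, 19.9 and 32.0 FPKM in the Lsm14b-KO libraries. The groups did not overlap, and Lsm14b-KO replicates 2 and 3 lay far below replicate 1 (log2 fold change -1.95, SE 0.57, adjusted p 0.0449 in limma). Cycs lies at chr6:50562563-50566538 (minus strand), and transcripts of 4 other annotated genes share a near-identical stretch with it. Promoters were examined for letters that nuclear respiratory factors recognise, taking 250 bases before and 50 after each start from RefSeq (GRCm38.p6, both strands searched). The NRF1 letters GCGCANGCGC stood in 10 of the 38 members with an entry (26.3%) and in 5.19% of 27025 genes, and the GABPA letters CCGGAAG in 12 of the 38 (31.6%) and in 9.93% of all genes. A match is a description of the letters and not a site. Only exact matches were counted, so a window without one is not shown to lack a site. Uqcrb was not among the 38. The windows shown here and further on are those of the called members Cycs, Cox6b2 and Atp5g2 and of the isoform partners Cox6b1 and Atp5g1, with matched letters in capitals. That of Cycs (chr6:50566520-50566819, minus strand) held neither set of letters in full. It held the letters tcgcatgcgc, which differ from the NRF1 letters in the first base only.
Cycs: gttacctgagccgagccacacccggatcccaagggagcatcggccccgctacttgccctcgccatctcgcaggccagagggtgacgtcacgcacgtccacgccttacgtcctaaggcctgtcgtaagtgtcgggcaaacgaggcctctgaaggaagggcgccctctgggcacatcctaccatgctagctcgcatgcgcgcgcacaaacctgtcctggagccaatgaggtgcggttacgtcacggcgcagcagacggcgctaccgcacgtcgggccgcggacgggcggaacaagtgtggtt

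In complex IV the member past the threshold was Cox6b2, the testis isoform of the subunit that bridges the dimer. It had 69.0, 51.4 and 38.4 FPKM in the WT and 131, 104 and 146 FPKM in the Lsm14b-KO libraries. All Lsm14b-KO values were above all WT values (log2 fold change 1.27, SE 0.32, adjusted p 0.0302 in limma). Its widely expressed partner Cox6b1 had 77.5, 82.8 and 58.0 FPKM in WT and 113, 40.5 and 69.4 FPKM in the Lsm14b-KO libraries, with overlap. As a share of the summed FPKM of both genes, which does not depend on a scaling factor of the library, Cox6b2 made 47.1%, 38.3% and 39.9% in WT and 53.7%, 71.9% and 67.8% in the Lsm14b-KO libraries. The share was higher in each Lsm14b-KO than in each WT library, and an exact permutation test of 3 against 3 libraries cannot give a two-sided p below 0.10. Cox6b2 (chr7:4751792-4753094) and Cox6b1 (chr7:30616861-30626151) both lie on the minus strand of chromosome 7, without near-identical stretches in other genes. Their transcripts are of like length, 585 and 618 nt. Their promoter windows (chr7:4753045-4753344 and chr7:30626065-30626364, minus strand) are shown to compare the isoforms: that of Cox6b1 held the GABPA letters once, read on the other strand, and that of Cox6b2 neither set.
Cox6b1: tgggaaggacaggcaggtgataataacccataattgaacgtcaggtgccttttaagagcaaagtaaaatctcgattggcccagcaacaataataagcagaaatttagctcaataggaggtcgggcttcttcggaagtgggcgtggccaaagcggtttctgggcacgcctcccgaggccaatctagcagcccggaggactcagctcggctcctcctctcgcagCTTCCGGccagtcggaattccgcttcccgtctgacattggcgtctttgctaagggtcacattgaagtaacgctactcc
Cox6b2: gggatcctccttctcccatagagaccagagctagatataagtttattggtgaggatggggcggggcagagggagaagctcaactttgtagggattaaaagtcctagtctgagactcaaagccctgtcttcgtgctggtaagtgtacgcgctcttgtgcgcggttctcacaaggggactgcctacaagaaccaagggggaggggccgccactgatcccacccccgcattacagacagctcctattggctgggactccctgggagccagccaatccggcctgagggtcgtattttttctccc

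Other tissue-restricted isoforms of complex IV were low or at 0. Cox7a1 and Cox8b, found in heart and muscle, were listed at 0 in all 6 libraries, and Cox7b2 at 0, 0 and 0.87 FPKM in WT and 0.67, 0 and 0 FPKM in the Lsm14b-KO libraries. Cox6a2, the heart and muscle form, had 13.1, 6.15 and 10.5 FPKM in WT and 6.71 to 13.8 FPKM in the Lsm14b-KO libraries (log2 fold change 0.08, SE 0.35). Cox8c, a testis form, had 5.03, 6.24 and 9.13 FPKM in WT and 8.81, 4.47 and 8.02 FPKM in the Lsm14b-KO libraries (0.04, SE 0.31). Both overlapped between groups. Cox4i2 had 1.11, 1.43 and 1.57 FPKM in WT and 0.41, 0.57 and 0.99 FPKM in the Lsm14b-KO libraries, without overlap (-0.53, SE 0.21). It was the only tested member that reached 1 FPKM in the libraries of 1 genotype alone, the WT in which it was higher, so no test of it is given. Cox4i2 is still included in the counts above, among them those of members and of complex IV genes at an unadjusted p under 0.05. It is also among the members counted as lower without overlap.

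Among the common subunits, Cox4i1, an early-assembling subunit, had 803, 764 and 696 FPKM in WT and 510, 197 and 424 FPKM in the Lsm14b-KO libraries. The groups did not overlap (log2 fold change -1.11, SE 0.40, adjusted p 0.0805 in limma). Cox7a2 had 606, 566 and 451 FPKM in WT and 506, 121 and 236 FPKM in the Lsm14b-KO libraries, with Lsm14b-KO replicate 1 inside the WT range (-1.14, SE 0.50). Cox5a, which partners Cox4i1 in assembly, had 102, 142 and 93.5 FPKM in WT and 94.4, 29.5 and 59.3 FPKM in the Lsm14b-KO libraries (-0.99, SE 0.44), again with replicate 1 inside the WT range. Cox6a1 had 164, 179 and 169 FPKM in WT and 214, 208 and 228 FPKM in the Lsm14b-KO libraries, each Lsm14b-KO value above each WT value (0.34, SE 0.27, adjusted p 0.354 in limma). Cox8a had 543 ± 31.1 FPKM in WT and 498 ± 16.6 FPKM in Lsm14b-KO libraries (SD, n = 3 each), without overlap.

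In complex V, Atp5a1 and Atp5b, the alpha and the catalytic beta subunit of the F1 head, had low values. Atp5a1 had 5.46, 5.49 and 4.05 FPKM in WT and 7.93, 7.69 and 7.31 FPKM in the Lsm14b-KO libraries (log2 fold change 0.54, SE 0.21, adjusted p 0.105 in limma), and Atp5b 2.65, 3.68 and 3.92 FPKM in WT and 4.33, 7.61 and 4.72 FPKM in the Lsm14b-KO libraries (0.55, SE 0.26, adjusted p 0.151 in limma). Atp5f1, the b subunit of the peripheral stalk, had 29.5, 24.5 and 27.8 FPKM in WT and 36.2, 46.9 and 51.4 FPKM in the Lsm14b-KO libraries (0.69, SE 0.27, adjusted p 0.10 in limma). In these 3 genes every Lsm14b-KO value was above every WT value, but none passed the threshold in limma. Atp5c1, the gamma subunit of the central stalk, had 13.5, 14.8 and 12.4 FPKM in WT and 11.7, 8.20 and 8.28 FPKM in the Lsm14b-KO libraries, each below each WT value (log2 fold change -0.50, SE 0.24, adjusted p 0.16 in limma). Its fitted value was 0.13 under TPM scaling, and it was called lower without Lsm14b-KO replicate 1 (-0.65, adjusted p 0.027 in limma). Transcripts of 1 other annotated gene share a near-identical stretch with Atp5c1, which also overlaps 1 gene on the same strand. Whether these are the same gene was not tested. The lowest fitted values were those of short subunits. Atp5e, the epsilon subunit of the central stalk, had 507, 532 and 444 FPKM in WT and 333, 73.4 and 167 FPKM in the Lsm14b-KO libraries (-1.62, SE 0.52, adjusted p 0.0584 in limma), and Atp5j2, the f subunit of the membrane part, 313, 330 and 279 FPKM in WT and 258, 66.7 and 126 FPKM in the Lsm14b-KO libraries (-1.24, SE 0.48, adjusted p 0.0970 in limma). Neither gene overlapped between groups, and in both Lsm14b-KO replicate 2 was the lowest library.

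The c-ring of complex V is encoded by 3 genes that give the same mature protein, and the least abundant of these passed the threshold. Atp5g2 had 13.5, 12.6 and 19.6 FPKM in the WT and 5.39, 8.61 and 8.34 FPKM in the Lsm14b-KO libraries. The groups did not overlap, with Lsm14b-KO replicate 1 the lowest here (log2 fold change -0.94, SE 0.28, adjusted p 0.0487 in limma), and transcripts of 2 other annotated genes share a near-identical stretch with Atp5g2. It was called in 2 of the 13 alternatives tried, and not with a pseudocount of 0.1 (adjusted p 0.054 in limma) nor under any of the 3 scalings of the libraries described further on, under all of which Atp5g1 was called higher (0.83, 0.91 and 0.79). Atp5g1 had 533, 496 and 449 FPKM in WT and 650, 425 and 569 FPKM in the Lsm14b-KO libraries (0.14, SE 0.30), and Atp5g3 46.3, 41.6 and 30.2 FPKM in WT and 45.5, 29.2 and 41.4 FPKM in the Lsm14b-KO libraries (-0.025, SE 0.31). Atp5g1 made 90.0% ± 0.12 of the summed FPKM of the 3 genes in WT and 92.2% ± 0.49 in Lsm14b-KO libraries, and Atp5g2 2.83% ± 0.95 and 1.33% ± 0.55 (SD, n = 3 each). Each Lsm14b-KO library had a higher Atp5g1 and a lower Atp5g2 share than each WT library. The promoter windows of the most and the least abundant gene, Atp5g1 and Atp5g2 (chr11:96075582-96075881 and chr15:102670998-102671297, minus strand) are shown for comparison. That of Atp5g2 held the NRF1 letters once and that of Atp5g1 neither set.
Atp5g1: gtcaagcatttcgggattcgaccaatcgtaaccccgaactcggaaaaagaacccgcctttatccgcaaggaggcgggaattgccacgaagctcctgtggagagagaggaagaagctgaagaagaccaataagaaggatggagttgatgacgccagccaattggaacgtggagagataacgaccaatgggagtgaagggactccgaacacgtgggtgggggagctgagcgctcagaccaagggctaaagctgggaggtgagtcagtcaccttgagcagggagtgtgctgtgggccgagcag
Atp5g2: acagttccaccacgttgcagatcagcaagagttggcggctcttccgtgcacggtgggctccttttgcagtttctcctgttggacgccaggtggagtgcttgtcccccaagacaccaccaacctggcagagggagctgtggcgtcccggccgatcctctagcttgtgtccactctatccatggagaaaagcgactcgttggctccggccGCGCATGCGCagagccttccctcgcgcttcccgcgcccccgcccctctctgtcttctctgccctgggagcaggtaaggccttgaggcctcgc

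Of the members that are not subunits, Cox7a2l was abundant and did not pass the threshold. It had 1185, 1186 and 1025 FPKM in the WT and 794, 185 and 328 FPKM in the Lsm14b-KO libraries, without overlap (log2 fold change -1.63, SE 0.51, adjusted p 0.0535 in limma). Atp5sl had 1.69, 0.55 and 0.20 FPKM in WT and 1.26, 1.84 and 1.54 FPKM in the Lsm14b-KO libraries, with overlap (0.57, SE 0.31), and Atp5s stayed under 1 FPKM.

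The balance among the complexes was also read within each library, where scaling has no part. Complex III made 41.2%, 39.8% and 37.0% of the summed member FPKM in the WT and 39.9%, 31.0% and 34.8% in the Lsm14b-KO libraries. Complex IV made 25.0%, 25.4% and 27.3% in WT and 27.2%, 35.8% and 32.9% in Lsm14b-KO, and complex V 17.6%, 18.7% and 18.9% in WT and 20.1%, 22.8% and 22.0% in Lsm14b-KO. Replicate 1 of the Lsm14b-KO group was inside the WT range for complexes III and IV, and all 3 Lsm14b-KO libraries were above WT for complex V. Complex II ranged from 4.91% to 5.58% in Lsm14b-KO and from 5.24% to 5.79% in WT, while Cycs went from 1.35% ± 0.027 to 0.63% ± 0.28 (SD, n = 3 each) without overlap. The non-subunits, which are part of the same sum, made 9.15%, 9.53% and 9.67% in WT and 7.03%, 4.37% and 4.76% in Lsm14b-KO libraries. Shares of a sum depend on one another, so a fall in one part raises the others. All members together made 1.01% ± 0.072 of the FPKM of a WT library and 0.96% ± 0.18 of that of an Lsm14b-KO library (SD, n = 3 each), a difference smaller than the spread. Relative to Uqcrq of the same complex, a ratio chosen after the values were seen, Uqcrb stood at 37.0%, 36.0% and 29.2% in WT and 25.2%, 10.6% and 10.3% in the Lsm14b-KO libraries.

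**Figure D3:**
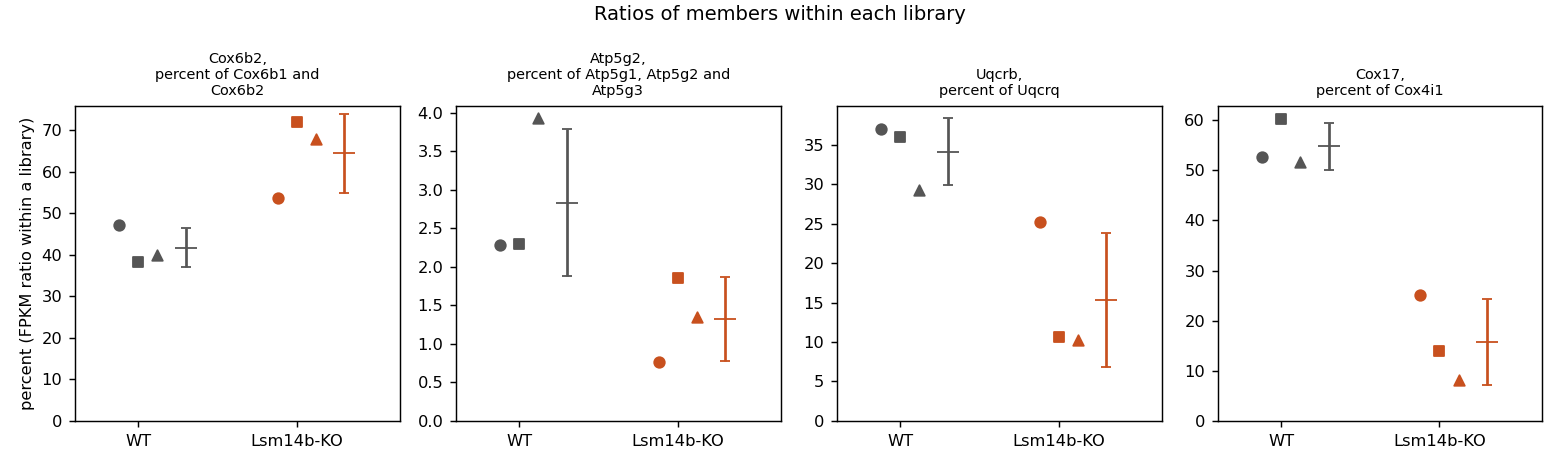
FPKM ratios in percent within each library for Cox6b2, Atp5g2, Uqcrb and the copper chaperone Cox17, with a symbol per replicate and the mean ± SD (n = 3) beside each group. The groups do not overlap in any of the 4 panels, with Cox6b2 at 38.3% to 47.1% in WT and 53.7% to 71.9% in Lsm14b-KO libraries. The genes drawn were all called in limma on the same libraries, so the panels are a description and no separate test. The ratios of Uqcrb and Cox17 were chosen after the values were seen.

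The 3 Lsm14b-KO libraries were not alike in these genes. The median deviation of the 43 members from the WT mean on the log2 scale was 0.063, -0.90 and -0.40 in the Lsm14b-KO libraries, against -0.13 to 0.089 in the WT libraries and -0.037, -0.14 and -0.069 over all tested genes in the same 3 Lsm14b-KO libraries. In complex III these medians were -0.15, -1.70 and -0.97, in complex IV 0.29, -0.86 and -0.060, in complex V 0.23, -0.80 and -0.44, and in complex II -0.13, -0.26 and -0.046. Replicate 2 was the lowest of all 6 libraries in 30 of the 43 members. Over all 43 members, and in complexes III, IV and V, the order of the Lsm14b-KO libraries was that of their summed FPKM, but in complex II replicate 3 was above replicate 1. The part of the summed FPKM in the result was not tested. Without Lsm14b-KO replicate 1, limma called 20 members lower and 2 higher (Cox6b2 and Atp5f1). These 20 comprised 1 of 4 genes of complex II, 5 of 7 of complex III, Cycs, 5 of 14 of complex IV, 7 of 15 of complex V, and Cox7a2l, with all tested genes at 1747 lower and 1151 higher. Without Lsm14b-KO replicate 2 the calls were 0 lower and 1 higher (Cox6b2), with 10 at an unadjusted p under 0.05 in limma. All tested genes then had 670 lower and 195 higher calls. Without WT replicate 1, 2 or 3 or Lsm14b-KO replicate 3 the calls of members were 0 lower and 0 higher, with 8, 5, 6 and 9 members at an unadjusted p under 0.05 in limma. All tested genes in the same fits had 330, 334, 380 and 276 lower and 66, 63, 82 and 39 higher calls, so calls fell across the table.

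**Figure D4:**
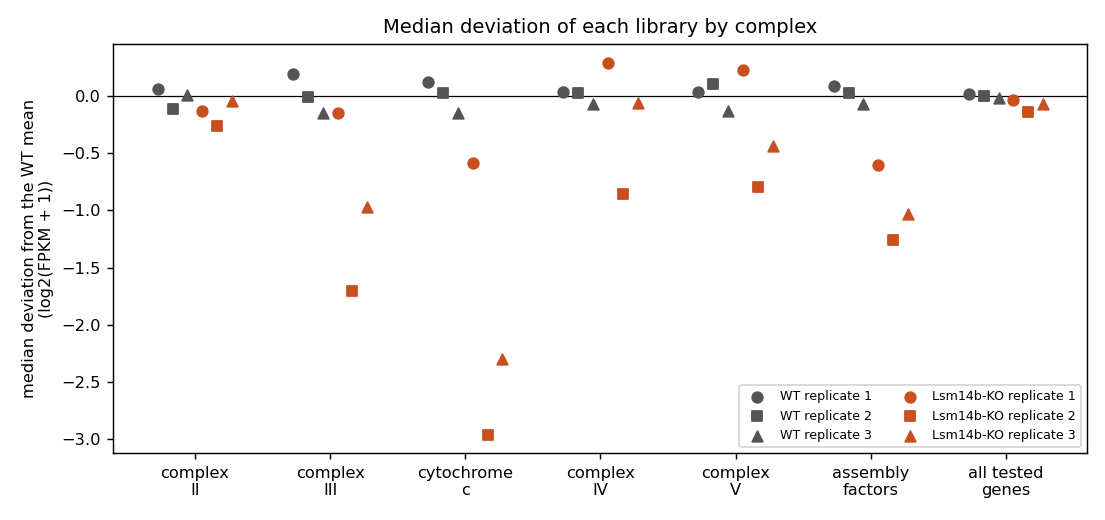
Median deviation from the WT mean, in log2(FPKM + 1), of the tested genes of each complex, of Cycs, of the assembly factors and of all tested genes, with a symbol per library. Lsm14b-KO replicate 2 is lowest in each complex, at -1.70 in complex III. Replicate 1 lies near the WT libraries in complexes II and III. It lies above all of them in complexes IV (0.29) and V (0.23), and below them for Cycs and the assembly factors.

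The direction of many members depended on how the libraries were scaled. Scaling every library to the same FPKM sum (TPM scaling) moved the median of all tested genes from -0.075 to 0.40, and quantile normalization and a correction for transcript length and GC content moved it to 0.069 and 0.068. TPM scaling turned the split of calls from 3 lower and 1 higher into 1 lower and 5 higher members, and that of all tested genes from 975 lower and 408 higher into 486 lower and 833 higher. The split of the members was 0 lower and 5 higher with quantile normalization, and 2 lower and 4 higher with the correction. That of all tested genes was 735 lower and 540 higher with quantile normalization, and 823 lower and 581 higher with the correction. Cox6b2, Cox6a1, Atp5f1 and Atp5g1 were called higher under all 3 scalings, and Atp5a1 under TPM scaling and quantile normalization. Uqcrb was called lower under TPM scaling (-1.57) and the correction (-1.36), Cycs under the correction (-1.89), and Atp5g2 under none of the 3. Of the 43 tested members 14 changed direction under at least 1 scaling and 10 under all 3, while 16 were lower and 8 higher in all 13 alternatives tried. Relative to the median of all genes under the same scaling, complex III was at -0.69, -0.29 and -0.25 under TPM scaling, quantile normalization and the correction, complex IV at 0.093, 0.24 and 0.50, complex V at -0.26, 0.054 and 0.11, and complex II at 0.041, -0.049 and 0.010.

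Most members have short transcripts, and the fitted values of short transcripts were mostly below 0 across the table. The log2 fold change of the members rose with transcript length (Spearman's rho 0.32 across 43 genes), as did that of all tested genes with a known length (0.36 across 6318 genes). Genes share the 6 libraries and are not independent, so these values carry no test. Of the 30 members under 1000 nt, 23 had lower fitted values (median -0.62), and of all 1104 tested genes under 1000 nt, 849 had (median -0.58). Of the 13 members of 1000 nt or more, 7 had lower fitted values (median -0.015), and of all 5214 such genes, 2503 had (median 0.043). Cycs, which fell, has a transcript of 3123 nt, the longest of the tested members. After the correction for length and GC content the rho of the members was -0.00083. The correction removes the relation with length in each library, so this low value was built in and is no result about the members. Annotation also limits single values. Of the 43 tested members, 16 share a near-identical stretch with another annotated gene. In addition, 14 overlap a gene on the other strand, whose reads cannot be told apart where strand was not kept. The deposited locus is shared with other genes in 7 of the 49, and that of Atp5d with 48.

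**Figure D5:**
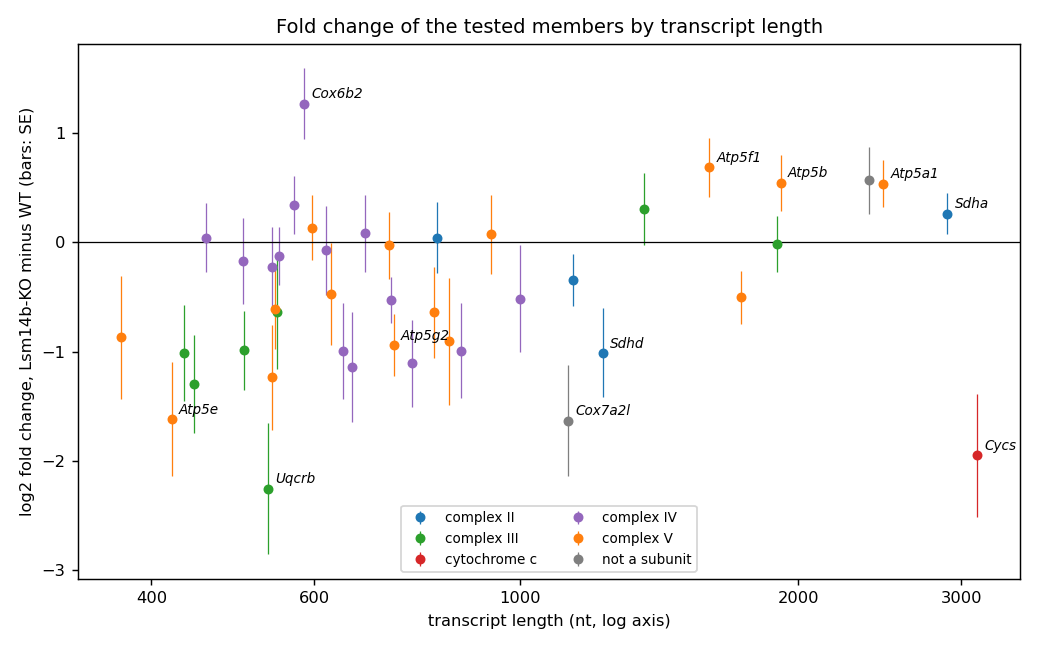
Log2 fold change (Lsm14b-KO minus WT, with SE) of the 43 tested members by transcript length in nt (log axis), coloured by complex. Members under 1000 nt lie mostly below 0 (23 of 30) and those of 1000 nt or more on both sides (7 of 13 below 0), with Cycs apart at the lower right.

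The factors that build these complexes were examined next, from a list of genes that are no subunits. This list too was chosen with earlier results of these data known. Of 37 assembly factors of complexes II to V and cytochrome c, 26 were tested, and limma called 13 lower (50%) and 0 higher, against 15.2% and 6.38% of all tested genes, with 13 at an unadjusted p under 0.05 and a median of -0.98. These calls comprised 3 of 4 factors of complex II, 1 of 3 of complex III, 8 of 16 of complex IV, and Tmem70 of complex V. Of the 26, Lyrm7 and Pet100 reached 1 FPKM in WT libraries alone and Coa5 in Lsm14b-KO libraries alone, the group in which each was higher. None of these was called, but they are part of the 26 and of the median. The difference between factors and subunits was itself not tested. The median deviation of the 26 factors from the WT mean was -0.60, -1.26 and -1.03 in the Lsm14b-KO libraries, and replicate 1 was below the WT libraries here. The calls numbered 9 under TPM scaling, 9 with quantile normalization and 12 with the length and GC correction, all lower. They numbered 4, 5 and 6 without WT replicates 1, 2 and 3, and 16, 10 and 4 without Lsm14b-KO replicates 1, 2 and 3.

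The factors of complex II add its cofactors. Sdhaf1, needed for the iron-sulfur clusters of SDHB, had 5.48, 4.10 and 5.92 FPKM in WT and 1.35, 0.56 and 0.16 FPKM in the Lsm14b-KO libraries (log2 fold change -1.91, adjusted p 0.0051 in limma). Sdhaf3, which acts at the same step, had 135, 132 and 115 FPKM in WT and 36.9, 14.6 and 26.8 FPKM in the Lsm14b-KO libraries (-2.33, adjusted p 0.0060 in limma). Sdhaf2, which adds FAD to SDHA, had 13.8, 12.3 and 12.8 FPKM in the WT and 6.56, 4.80 and 4.96 FPKM in the Lsm14b-KO libraries (-1.13, adjusted p 0.0138 in limma). None of these 3 genes overlapped between groups. Sdhaf4, the fourth factor tested, had 897, 909 and 708 FPKM in WT and 868, 355 and 472 FPKM in the Lsm14b-KO libraries, with overlap (-0.66, adjusted p 0.225 in limma). Uqcc2, which helps make cytochrome b for complex III, was at 43.7 ± 4.45 FPKM in WT and 14.6 ± 7.54 FPKM in Lsm14b-KO libraries (SD, n = 3 each, -1.64, adjusted p 0.0257 in limma).

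Of the 16 tested factors of complex IV, 8 were called lower, several of them small twin-cysteine proteins of the intermembrane space. The other 8 did not pass, among them Coa6 (-0.40), which also acts in copper delivery, Surf1 (0.14) and Cox10 (0.65), which makes heme for the enzyme. Cox17, the copper chaperone, had 423, 460 and 359 FPKM in the WT and 128, 27.4 and 34.4 FPKM in the Lsm14b-KO libraries (log2 fold change -3.03, adjusted p 0.0104 in limma). Set against Cox4i1 in the same library, it went from 52.7%, 60.2% and 51.6% in WT to 25.1%, 13.9% and 8.10% in the Lsm14b-KO libraries. This ratio was chosen after the values were seen. Coa4, another twin-cysteine protein, had 63.2, 62.9 and 50.6 FPKM in WT and 7.98, 4.39 and 6.88 FPKM in the Lsm14b-KO libraries (-3.04, adjusted p 0.0012 in limma). Coa7, a heme-binding assembly factor, had 41.6, 36.1 and 39.5 FPKM in WT and 6.32, 3.52 and 4.09 FPKM in the Lsm14b-KO libraries (-2.86, adjusted p 0.0012 in limma). In both, the Lsm14b-KO libraries were close to one another and far below WT. Cmc1, Cmc2, Coa3, Cox19 and Cox14 had log2 fold changes of -2.86, -1.89, -1.65, -1.35 and -1.16. Tmem70, which helps assemble the c-ring of complex V, was at 49.6 ± 5.88 FPKM in WT and 22.2 ± 7.57 FPKM in Lsm14b-KO libraries (SD, n = 3 each, -1.17, adjusted p 0.0353 in limma). Coa4, Coa7, Sdhaf1 and Sdhaf3 were called lower in all 13 alternatives, whereas Cox6b2, the most often called member, was called in 7 and Uqcrb in 6.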

How the data were processed

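Expression values of 3 WT and 3 Lsm14b-KO libraries were analysed, grouped by the titles and genotype labels. The authors aligned the reads to mm10 with TopHat2 (2.0.13), per the submitters' processing notes, and the deposited FPKM values were made with Cufflinks (2.2.1). Each value is relative to transcript length and library size. Cuffnorm and Cuffdiff are named too, without versions, and how the libraries were scaled against one another is not known here. The annotation and strandedness are not given in the sources used here. The fold changes, p-values and q-values of the authors' own comparison in the same table were not used. The table holds no counts, so depth is unknown and no counting interval was computed.

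The 6398 of 24255 genes that reached 1 FPKM in any library were tested on log2(FPKM + 1) with limma (3.58.1, R 4.3.3; lmFit, eBayes with trend, two-sided), genotype being the only term, with Benjamini-Hochberg adjustment over all 6398. The fit was tested on simulated data. Alternatives were a pseudocount of 0.1, TPM scaling, quantile normalization, a loess correction for transcript length and GC content in each library, other filters, a replicate block, and each library left out. Transcript length, GC content and coordinates came from GENCODE vM21 (GRCm38), and near-identical stretches shared with other genes from blastn (2.17.0, at least 95% identity over 200 nt). Genes that overlap a member were not left out of the count of such genes. The members and gene lists were chosen with earlier results of these data known. Values in every library were given for set subunits and for the largest rises and falls of complexes III to V, and the ratios of Uqcrb to Uqcrq and Cox17 to Cox4i1 were added afterwards.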

Additional observations from a re-analysis of the deposited data

How the results depend on the processing

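The number of members called lower, 3, became 2 with a pseudocount of 0.1, where Atp5g2 had an adjusted p of 0.054 in limma, 1 under TPM scaling, 0 with quantile normalization, 0 with no filter, and 0 to 20 when each library was left out. The number called higher, 1, became 5 under TPM scaling, 5 with quantile normalization, 4 with the length and GC correction, 0 with no filter, 0 with the replicate block, and 0 to 2 when each library was left out. With no filter, 14 members had an unadjusted p under 0.05 in limma, and 542 lower and 178 higher calls were made among 14325 genes. A pseudocount of 0.1 gave 930 lower and 401 higher calls among all tested genes. Under TPM scaling the median log2 fold change was 0.44 in complex II, 0.49 in complex IV and 0.13 in complex V. With quantile normalization it was 0.019 in complex II and 0.12 in complex V, and with the length and GC correction 0.078 in complex II, -0.18 in complex III, 0.56 in complex IV and 0.18 in complex V. The cause was not tested. The count of assembly factors called lower, 13, was 4 to 16 when each library was left out, alternatives chosen after seeing the data.

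The 14 members that turned direction under a scaling had fitted log2 fold changes from -0.64 to -0.015 without it. Under TPM scaling those that turned were Atp5j at 0.045, Uqcrh at 0.057, Atp5l at 0.079, Atp5c1 at 0.13, Sdhb at 0.17, Cox7b at 0.18, Atp5h at 0.22, Cox7c at 0.46, Cox6c at 0.51, Cox8a at 0.57, Cox6b1 at 0.61, Uqcrc2 at 0.62 and Atp5g3 at 0.65. With quantile normalization those that turned were Atp5l at 0.12, Cox7b at 0.14, Uqcrh at 0.15, Atp5h at 0.22, Uqcrc2 at 0.26, Cox6c at 0.38, Cox7c at 0.45, Cox6b1 at 0.47, Atp5g3 at 0.49 and Cox8a at 0.68, and with the length and GC correction Sdhb at 0.0017, Cox4i2 at 0.038, Uqcrh at 0.13, Cox7b at 0.16, Atp5l at 0.18, Uqcrc2 at 0.19, Atp5h at 0.24, Cox8a at 0.54, Cox7c at 0.59, Atp5g3 at 0.62, Cox6b1 at 0.63 and Cox6c at 0.64. With each library left out in turn, the values ran from -0.163 to 0.511 for Atp5d, -0.200 to 0.160 for Atp5g3, -0.888 to 0.029 for Atp5h, -0.196 to 0.347 for Cox6a2, -0.431 to 0.296 for Cox6b1, -0.419 to 0.213 for Cox6c, -0.472 to 0.111 for Cox7c, -0.125 to 0.305 for Cox8c, -0.117 to 0.337 for Sdhc, -0.120 to 0.144 for Uqcrc2 and -0.030 to 0.519 for Uqcrfs1. Of 559 values of the 43 tested members under the 13 alternatives, 441 kept direction and side of the threshold, 29 newly passed it, 32 no longer passed it, and 57 turned direction.

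Replicate numbers are shared by the groups, and the labels do not say whether same-numbered libraries were collected together. Their deviations from the group means correlated at 0.19, -0.13 and 0.018. With 3 libraries per group such values cannot decide this, so pairing is unknown. With the replicate block 2 members (Uqcrb and Cycs) were called lower and 0 higher in limma, with 14 at an unadjusted p under 0.05, and 11 assembly factors lower. All tested genes then had 891 lower and 353 higher calls. The table gives no read depth, so how far low values such as those of Cyc1 can be resolved is unknown.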

Other observations

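Genes that control the transcription of respiratory chain genes were listed too, 10 in all, and 3 of them reached 1 FPKM in at least 1 library. Yy1, a zinc finger factor, had 0.37, 0.54 and 0.24 FPKM in the WT and 2.12, 1.76 and 1.46 FPKM in the Lsm14b-KO libraries. Tfam, the mitochondrial transcription factor, had 0.069, 0.060 and 0.20 FPKM in WT and 0.52, 1.13 and 0.92 FPKM in the Lsm14b-KO libraries. In both, every Lsm14b-KO value was above every WT value, but they reached 1 FPKM in Lsm14b-KO libraries alone, so their entry into the fit rested on the group in which they were high and no test of them is given. Gabpb1 had 0.87, 1.49 and 3.25 FPKM in WT and 1.60, 2.09 and 4.06 FPKM in the Lsm14b-KO libraries, with overlap. Nrf1, Gabpa, Gabpb2, Esrra, Ppargc1a, Ppargc1b and Pprc1 stayed under 1 FPKM in every library.

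Usmg5, a small subunit of the ATP synthase dimer whose symbol lies outside the Atp5 names, had 9.27, 12.2 and 13.3 FPKM in WT and 6.05, 0 and 2.48 FPKM in the Lsm14b-KO libraries (log2 fold change -2.10, adjusted p 0.0470 in limma). The groups did not overlap. It was called in 4 of the 13 alternatives and under none of the 3 scalings, with adjusted p values from 0.0053 to 0.147 in limma. From the same list of complex V genes, 2010107E04Rik had 917, 1023 and 809 FPKM in WT and 942, 345 and 572 FPKM in the Lsm14b-KO libraries. The groups overlapped (-0.67, adjusted p 0.234 in limma), and its direction turned under all 3 scalings. Atpif1 overlapped too (0.15, adjusted p 0.795 in limma).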
